A study of Mus musculus with 16 samples.

Results

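BMX-001 given without chemotherapy was compared with PBS in mouse bone marrow of both genotypes of the study. The 8 libraries of this comparison, 4 with BMX-001 and 4 with PBS, were chosen by treatment label alone from the 16 libraries of the series. Each group held 2 libraries. They were Nrf2-/- marrow with BMX-001 (KO BMX-001), C57BL/6 wild-type marrow with BMX-001 (WT BMX-001), Nrf2-/- marrow with PBS (KO PBS) and wild-type marrow with PBS (WT PBS). None of these mice is labelled as given 5-fluorouracil (5-FU), a thymidylate synthase inhibitor. The other 8 libraries came from mice given 20 mg/kg of 5-FU, with or without BMX-001. The dosing schedule is described around 5-FU only: BMX-001 at 0.5 mg/kg from 24 h before 5-FU and then every 3 days, a repeat dose of 5-FU on day 7, and collection of marrow on day 10. Whether mice without 5-FU followed the same days is not stated. Wild-type mice were males of 8 to 10 weeks. Nrf2-/- mice were bred from heterozygotes, carry a mutant and inactive form of Nrf2, and have no stated age or sex. All RNA came from whole marrow, so cells of every lineage contributed. The labels speak of duplicate isolation of marrow and do not say that duplicates are separate mice, so the p-values may measure technical spread only.

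BMX-001 is a manganese porphyrin whose metal centre takes up and gives back electrons, which lets it react with superoxide and other oxidants. NRF2, the product of Nfe2l2, is a transcription factor that is released from its inhibitor KEAP1 under oxidative stress and turns on genes for glutathione synthesis, quinone reduction and NADPH supply. Marrow is rich in cells that are equipped to make oxidants: neutrophil precursors and monocytes assemble the NADPH oxidase and store myeloperoxidase in primary granules. Genes of these cells depend on the transcription factor PU.1, encoded by Spi1, and on C/EBP epsilon, encoded by Cebpe.

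Nfe2l2, the gene targeted in the KO mice, stood at 16.4 and 8.25 CPM (counts relative to the library total after scaling for composition) in KO BMX-001 libraries and at 111 and 112 CPM in WT BMX-001 libraries, against 6.42 and 6.89 CPM in KO PBS libraries and 117 and 97.7 CPM in WT PBS libraries. Every library carried the level of its labelled genotype. Throughout, values of a group are given for replicate 1 and then replicate 2. Library totals ran from 27305707 counts in KO BMX-001 replicate 1 to 39156336, and the lowest of the other 7 was 36011347. Marrow markers were present in all 8 libraries, with the erythroid gene Hbb-bs at 26800 to 43500 CPM, the neutrophil gene Ltf at 1910 to 6100 CPM, the B lineage gene Cd79a at 104 to 201 CPM and the progenitor gene Kit at 36 to 96.7 CPM. Of markers of cells that could be carried over, the muscle genes Acta1 and Ckm stayed at or under 0.501 CPM and the adipocyte gene Plin1 at or under 0.106 CPM, while the bone gene Col1a1 ranged from 7.94 to 75.3 CPM. The 2 libraries of every group differed beyond sampling noise. Their chi-square divided by its degrees of freedom was 130 in KO BMX-001 and 11.8 in WT BMX-001, against 15.7 in KO PBS and 42.9 in WT PBS.

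A pair of libraries stood apart, and results that turn on them are given with and without them. KO BMX-001 replicate 1 scored 67.5 on a principal component that took up 50.3% of the variance, with scores of -24.3 to 5.57 for the rest. Malat1, a nuclear RNA, reached 12030 CPM there and 2543 to 4593 CPM elsewhere, and Mpo reached 279 CPM there and 1323 to 2172 CPM elsewhere. WT PBS replicate 2 had high immediate early genes: Fos reached 287 CPM there, against 36.4 CPM in its duplicate. Results without KO BMX-001 replicate 1 rest on 7 libraries and those without both on 6.

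Over both genotypes no single gene passed the main test. With genotype as a block, edgeR's quasi-likelihood test called 0 of 17670 genes at a Benjamini-Hochberg adjusted p under 0.05 (0%), and the smallest adjusted p was 0.418. At an unadjusted p under 0.05 there were 1960 genes (11.1%), of which 638 were lower with BMX-001 (3.61%) and 1322 were higher (7.48%). The count without KO BMX-001 replicate 1 was again 0 of 17905, with a smallest adjusted p of 0.0719 and 2685 genes (15%) at an unadjusted p under 0.05. Without WT PBS replicate 2 it was 0 of 18164, with 2168 genes (11.9%) at that unadjusted p, and without both libraries 7 of 17722 (0.0395%), with 3153 genes (17.8%) at an unadjusted p under 0.05. Other tests on all 8 libraries made calls. DESeq2 called 62 genes (0.377%), 54 higher (0.329%) and 8 lower (0.0487%) with BMX-001. A limma-trend fit that estimates a weight for each library called 563 genes (3.19%), 343 higher (1.94%) and 220 lower (1.25%). That fit gave KO BMX-001 replicate 1 a weight of 0.0787 and KO BMX-001 replicate 2 the highest weight, 4.23. The other weights ran from 0.644 for WT PBS replicate 2 to 2.69 for WT BMX-001 replicate 1. In KO BMX-001 the limma calls below thus rest almost wholly on replicate 2. Where a gene is said below to have risen or fallen, the test that called it is named. Members of a list named because limma called them, or as further examples, were chosen after their values were seen.

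Spi1, the gene for PU.1, was lower in every BMX-001 library than in every PBS library. It stood at 118 and 121 CPM in KO BMX-001 libraries and 127 and 127 CPM in WT BMX-001 libraries, against 160.5 and 158 CPM in KO PBS libraries and 157 and 160.1 CPM in WT PBS libraries. The pair of libraries that stood apart lay among their own treatment group. Spi1 averaged 123 ± 4.44 CPM with BMX-001 and 159 ± 1.73 CPM with PBS (SD, n = 4 each). This gave a log2 fold change of -0.37 ± 0.07 (SE). Spi1 fell by limma with sample weights (adjusted p = 0.0241) and by DESeq2 (adjusted p = 0.00738), while in edgeR its adjusted p was 0.418 with all libraries, 0.102 without KO BMX-001 replicate 1 and 0.0682 without both. Leaving out KO BMX-001 replicate 1, or both libraries, gave -0.36 each time. In whole marrow, fewer cells that express Spi1 and less Spi1 RNA per cell cannot be told apart, and the same holds for every gene and list below.

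The other genes of smallest p in the 8 libraries were split between lower and higher values with BMX-001. Lower were Dgat2, which makes triglycerides, Vill, a relative of the actin regulator villin, the membrane scaffold gene Flot2 and the immunoglobulin segment Igkv19-93. Vill was at 13.7 and 12.3 CPM in KO BMX-001 libraries and at 15 and 11.7 CPM in WT BMX-001 libraries, against 17.7 and 20.6 CPM in KO PBS libraries and 20 and 21.3 CPM in WT PBS libraries. Its groups did not overlap, with a log2 fold change of -0.59 ± 0.11 (SE). Dgat2 had a log2 fold change of -0.47 ± 0.08 and Flot2 of -0.47 ± 0.10, and the 3 genes fell by limma with sample weights, each at an adjusted p of 0.0241, and by DESeq2 at adjusted p = 0.0128 for Dgat2, 0.00814 for Vill and 0.0439 for Flot2. Igkv19-93 averaged 8.56 ± 6.38 CPM with BMX-001 and 32.2 ± 15.6 CPM with PBS (SD, n = 4 each), with groups that overlapped; it fell by DESeq2 (adjusted p = 4.38e-05) and not by limma (adjusted p = 0.104). Higher were the Hippo pathway gene Mob1b, the GPI anchor remodelling gene Pgap1, the silencing factor gene Fam208a, the zinc finger gene Zfp874b and Cr2, the complement receptor of mature B cells. Cr2 stood at 22.1 and 16.3 CPM in KO BMX-001 libraries and 19.1 and 14.5 CPM in WT BMX-001 libraries, against 12.9 and 9.92 CPM in KO PBS libraries and 10.9 and 11.3 CPM in WT PBS libraries. The groups of all 5 genes were separate, at log2 fold changes of 0.38 to 0.68, and all 5 rose by limma with sample weights at adjusted p-values of 0.0241 to 0.0295. By DESeq2 Cr2 alone of the 5 rose (adjusted p = 0.0461), and the other 4 did not pass, with adjusted p of 0.0581 for Mob1b and for Pgap1, 0.0621 for Fam208a and 0.0759 for Zfp874b.

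Without KO BMX-001 replicate 1, all 10 genes of smallest p with a known name were lower with BMX-001. Besides Spi1, Vill and Flot2 these were Olfml2b, an extracellular matrix gene, Ltb4r1, the leukotriene B4 receptor of neutrophils, Ckap4, a membrane protein of the endoplasmic reticulum, Anxa3, an annexin of neutrophil granules, Hk3, the hexokinase of myeloid cells, Pgam1, a glycolytic enzyme, and Gys1, a glycogen synthase. Their log2 fold changes in the 7 libraries ran from -0.64 for Vill to -0.34 for Anxa3 and Pgam1, and their adjusted p in edgeR ran from 0.0994 to 0.102. Ltb4r1 was at 34.1 and 62.3 CPM in KO BMX-001 libraries and at 56.8 and 56.7 CPM in WT BMX-001 libraries, against 77.8 and 77.2 CPM in KO PBS libraries and 71.6 and 77.2 CPM in WT PBS libraries. The value of 34.1 CPM came from the library that stood apart, and the other 3 BMX-001 libraries were also below every PBS library.

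The 7 genes called by edgeR without both libraries were 4 that rose and 3 that fell. Lrg1, a secreted glycoprotein of neutrophil granules, fell with a log2 fold change of -0.60 ± 0.07 (adjusted p = 0.0267). It stood at 52 and 67.2 CPM in KO BMX-001 libraries and 55.5 and 60.8 CPM in WT BMX-001 libraries, against 92.4 and 98.8 CPM in KO PBS libraries and 92.6 and 66 CPM in WT PBS libraries, so the groups overlapped only through WT PBS replicate 2. Slc16a3, the lactate exporter MCT4, fell with -0.48 ± 0.06 (adjusted p = 0.0267), but this rests on leaving KO BMX-001 replicate 1 out. That library held 269 CPM of Slc16a3, against 55.2 to 62.4 CPM in the other 3 BMX-001 libraries and 79.4 to 120 CPM in the PBS libraries, and with all 8 libraries the log2 fold change was 0.07 ± 0.50. Plod3, a collagen lysyl hydroxylase, fell with -0.44 ± 0.06 (adjusted p = 0.0267). The 4 that rose were mt-Nd2, a mitochondrially encoded subunit of complex I (0.65 ± 0.08), the host RNA of a microRNA cluster, Dleu2 (0.54 ± 0.07), and the noncoding genes Gm43864 (0.64 ± 0.08) and Gm37494 (0.50 ± 0.07), with edgeR adjusted p-values of 0.0267 to 0.0434. Gm43864 was at 33.8 and 27.6 CPM in KO BMX-001 libraries and 19.3 and 20.3 CPM in WT BMX-001 libraries, against 17.2 and 18.4 CPM in KO PBS libraries and 12.5 and 13 CPM in WT PBS libraries. It was separate between treatments in all 8 libraries and also rose by limma (adjusted p = 0.00502) and by DESeq2 (adjusted p = 4.38e-05).

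**Figure D1:**
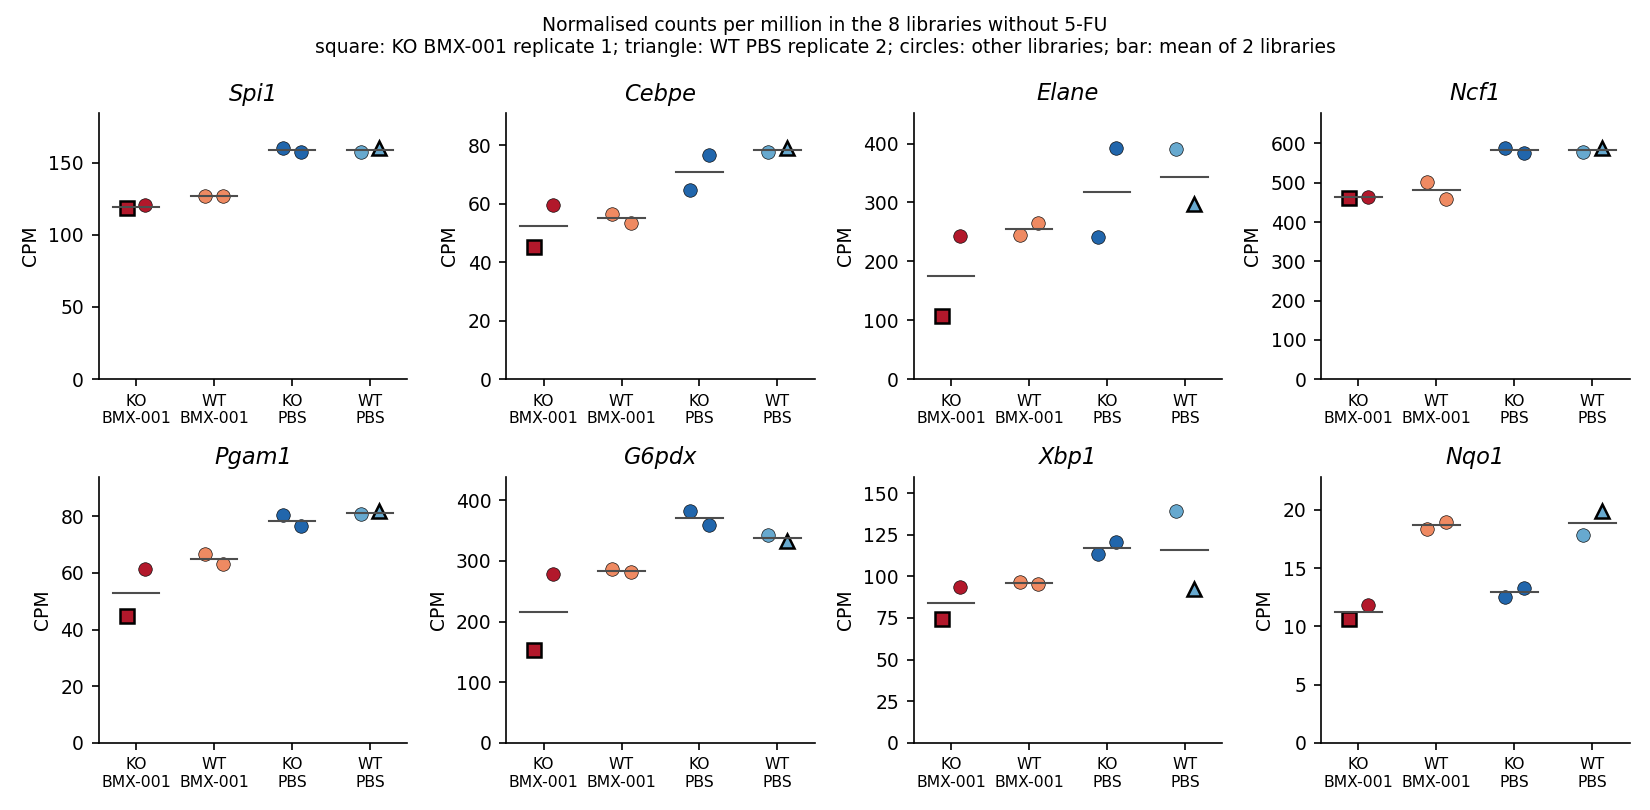
Normalised CPM of 8 genes in KO BMX-001, WT BMX-001, KO PBS and WT PBS marrow, 1 symbol per library and a bar at the mean of 2 libraries; the square is KO BMX-001 replicate 1 and the triangle WT PBS replicate 2. All BMX-001 symbols lie below all PBS symbols for Spi1, Cebpe, Ncf1, Pgam1 and G6pdx, overlap for Elane and Xbp1, and follow genotype for Nqo1.

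Genes of the primary granule, which promyelocytes fill with proteases and myeloperoxidase, were lower with BMX-001 in most libraries. Of 19 tested members of that list, 18 had a negative log2 fold change in the 8 libraries and the median was -0.40, against 0.02 over all genes. In 8 members every BMX-001 library lay below every PBS library, where 5.1% of all genes did so. Summed over the list, BMX-001 libraries held 5130 to 8210 CPM and PBS libraries 8570 to 10000 CPM. The lowest sum was that of KO BMX-001 replicate 1, and without that library the median was -0.30 with 19 of 19 members negative. Elane, which encodes neutrophil elastase, stood at 107 and 243 CPM in KO BMX-001 libraries and 245 and 265 CPM in WT BMX-001 libraries, against 241 and 393 CPM in KO PBS libraries and 390.3 and 297 CPM in WT PBS libraries. The groups overlapped, since KO PBS replicate 1 was as low as the BMX-001 libraries, and the log2 fold change was -0.64 ± 0.27 (edgeR, adjusted p = 0.448). Prtn3, for proteinase 3, was at 81.8 and 141 CPM in KO BMX-001 libraries and 146 and 142 CPM in WT BMX-001 libraries, against 152 and 224 CPM in KO PBS libraries and 259 and 159 CPM in WT PBS libraries. Mpo, for myeloperoxidase, was at 279 and 1442 CPM in KO BMX-001 libraries and at 1369 and 1323 CPM in WT BMX-001 libraries, against 1525 and 2042 CPM in KO PBS libraries and 2172 and 1550 CPM in WT PBS libraries. For Prtn3 and Mpo the groups were separate, and the level of Mpo in KO BMX-001 replicate 1 moved the log2 fold change to -0.76 ± 0.44 with all libraries from -0.41 ± 0.14 without that library.

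Transcription factor genes of this stage, which are members of the same list, were lower as well. Cebpe was at 45.1 and 59.4 CPM in KO BMX-001 libraries and at 56.6 and 53.3 CPM in WT BMX-001 libraries, against 64.8 and 76.7 CPM in KO PBS libraries and 77.5 and 79.1 CPM in WT PBS libraries. Gfi1, a repressor that granulocyte formation needs, averaged 17 ± 0.716 CPM with BMX-001 and 21.7 ± 2.94 CPM with PBS (SD, n = 4 each). Both had separate groups and fell by limma with sample weights, Cebpe with a log2 fold change of -0.47 ± 0.11 in edgeR (limma, adjusted p = 0.027) and Gfi1 with -0.36 ± 0.11 (limma, adjusted p = 0.0362). The cathepsin G gene Ctsg (adjusted p = 0.0427) and the granule membrane gene Nkg7 (adjusted p = 0.0295), also in the T and NK cell list, fell by the same test. It called these 4 of the 19 members lower and 0 higher, where it called 1.25% of all genes lower. Elane, Prtn3 and Mpo did not pass it (limma, adjusted p = 0.142, 0.106 and 0.219). Lyz2, for lysozyme, the most abundant member, averaged 3788 ± 521 CPM with BMX-001 and 4397 ± 513 CPM with PBS, with groups that overlapped.

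The promoters of Elane, Prtn3 and Mpo are shown because these 3 genes encode the main enzymes of the granule and hold a PU.1-type sequence, GAGGAAGT, in capitals below. It contains GGAA, the core that all ETS factors share. Sequences are from RefSeq on GRCm38.p6, from 250 bases before to 50 bases after the annotated start, written 5′ to 3′ on the gene's strand.
Elane: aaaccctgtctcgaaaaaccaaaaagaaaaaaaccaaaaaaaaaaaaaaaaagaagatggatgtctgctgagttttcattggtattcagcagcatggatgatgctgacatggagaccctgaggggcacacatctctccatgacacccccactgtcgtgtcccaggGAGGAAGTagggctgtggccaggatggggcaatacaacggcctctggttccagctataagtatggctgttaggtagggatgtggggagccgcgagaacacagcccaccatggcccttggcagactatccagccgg
Prtn3: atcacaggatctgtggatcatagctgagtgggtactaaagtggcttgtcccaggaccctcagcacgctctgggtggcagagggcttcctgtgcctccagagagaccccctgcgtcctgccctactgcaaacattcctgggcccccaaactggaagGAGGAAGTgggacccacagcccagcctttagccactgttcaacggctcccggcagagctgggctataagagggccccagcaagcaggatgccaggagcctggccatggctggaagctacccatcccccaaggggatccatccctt
Mpo: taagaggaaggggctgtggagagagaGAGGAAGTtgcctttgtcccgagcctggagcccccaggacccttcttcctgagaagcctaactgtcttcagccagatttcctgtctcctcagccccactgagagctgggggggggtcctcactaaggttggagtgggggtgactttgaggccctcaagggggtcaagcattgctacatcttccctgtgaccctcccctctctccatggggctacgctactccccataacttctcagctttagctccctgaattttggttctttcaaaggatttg
They lie at chr10:79886062-79886361, chr10:79879417-79879716 and chr11:87793534-87793833, all on the plus strand, and Elane and Prtn3 are neighbours. The match began 85 bases before the start of Elane, 95 before that of Prtn3 and 224 before that of Mpo. Searched on both strands (reverse complement ACTTCCTC), the letters occurred in 4 of the 18 primary granule genes with a promoter in the table, Ctsc being the fourth, and in 3.69% of all 27025 genes with one. The match is a description of these windows and is no measure of binding.

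Secondary and tertiary granule genes, made in myelocytes and metamyelocytes, were lower in 20 of 22 tested members, with a median log2 fold change of -0.37 in the 8 libraries and -0.28 without KO BMX-001 replicate 1. In 10 members the groups were separate and lower, where 5.1% of all genes were. By limma with sample weights 6 members fell and 0 rose, where 1.25% of all genes fell: Cd177, Chil3, Hp, Ly6g, Mmp25 and Pglyrp1. Chil3, a chitinase-like protein, was at 949 and 1846 CPM in KO BMX-001 libraries and 1708 and 1700 CPM in WT BMX-001 libraries, against 2468 and 2320 CPM in KO PBS libraries and 1958 and 2176 CPM in WT PBS libraries (limma, adjusted p = 0.0485). Cd177, a surface protein of neutrophils, averaged 614 ± 167 CPM with BMX-001 and 914 ± 85.5 CPM with PBS (limma, adjusted p = 0.0303). Hp, for haptoglobin, averaged 402 ± 59.7 CPM with BMX-001 and 538 ± 42.7 CPM with PBS (limma, adjusted p = 0.027). Of the 2 most abundant members, Ngp averaged 5682 ± 1840 CPM with BMX-001 and 8249 ± 1010 CPM with PBS, and S100a9 averaged 8100 ± 1840 CPM with BMX-001 and 8217 ± 966 CPM with PBS. S100a9 was highest in KO BMX-001 replicate 1, at 10840 CPM.

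Mature neutrophil genes split with the library that stood apart. With all 8 libraries their median log2 fold change was 0.06, with 10 of 21 negative, and without KO BMX-001 replicate 1 it was -0.24, with 21 of 21 negative. Mxd1, the most abundant member, stood at 1006 CPM in KO BMX-001 replicate 1 and at 570 to 595 CPM in the other 3 BMX-001 libraries, against 579 to 693 CPM in PBS libraries. By limma with sample weights 6 members fell and 0 rose, where 1.25% of all genes fell. Monocyte genes had a median of -0.32 with all libraries and of -0.14 without KO BMX-001 replicate 1, with 21 of 24 negative in either case. Fitted within each genotype without that library, the median was -0.27 in KO, from 1 BMX-001 library. In WT it was -0.02, with 15 of 24 negative. Ly6c2, the surface marker of inflammatory monocytes, was at 192 and 312 CPM in KO BMX-001 libraries and 324 and 337 CPM in WT BMX-001 libraries, against 434 and 444 CPM in KO PBS libraries and 371 and 397 CPM in WT PBS libraries, and fell by limma (adjusted p = 0.0295). The most abundant monocyte genes, Fn1 and Mpeg1, had groups that overlapped.

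**Figure D2:**
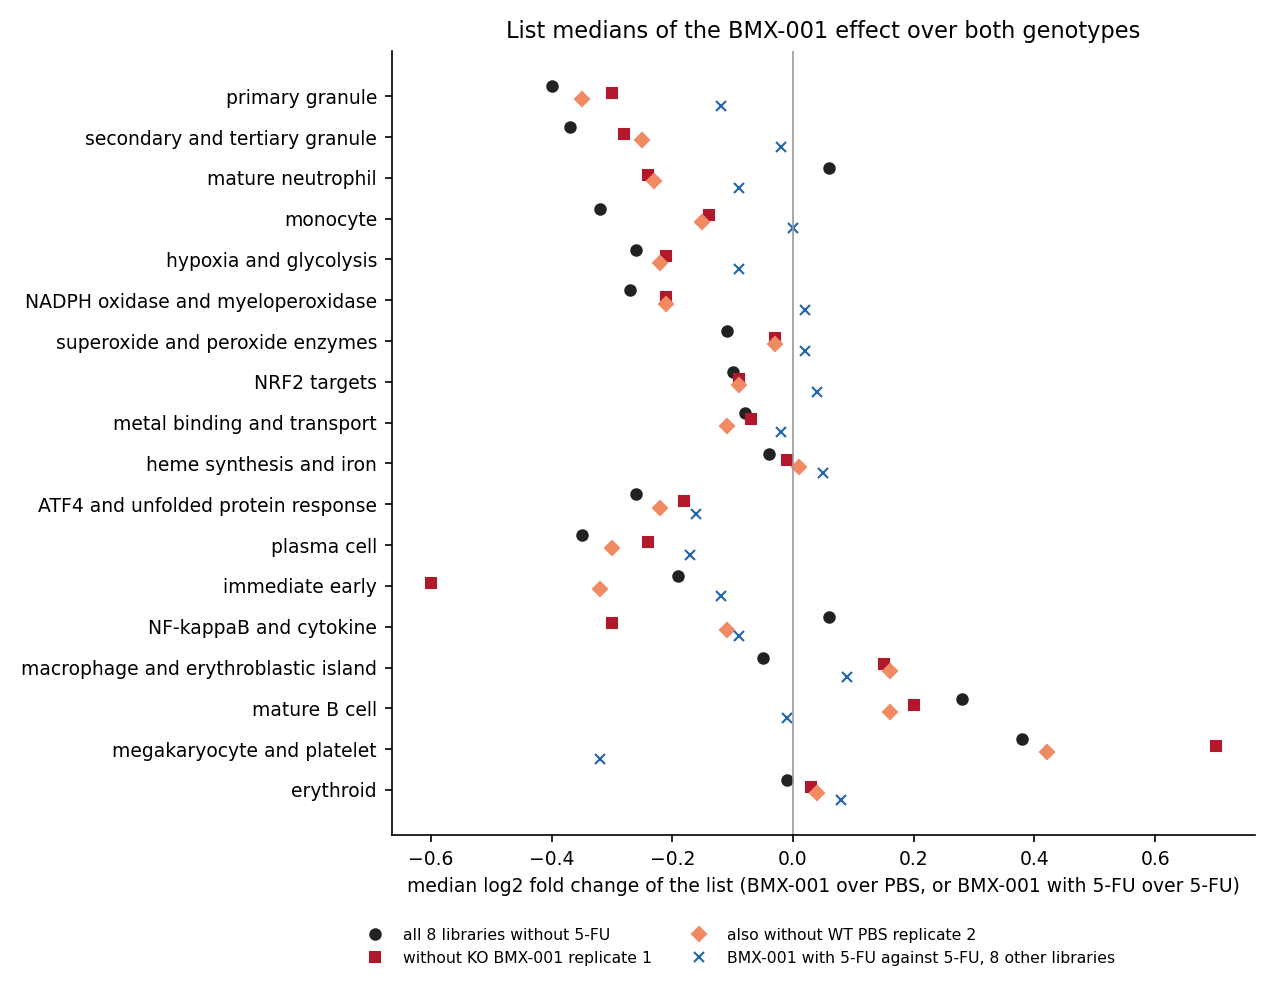
Median log2 fold change of the members of 18 gene lists, BMX-001 over PBS over both genotypes with all 8 libraries, without KO BMX-001 replicate 1 and without both libraries that stood apart, and BMX-001 with 5-FU over 5-FU in the other 8 libraries. Granule lists, hypoxia and glycolysis, and NADPH oxidase and myeloperoxidase lie left of 0 in the 3 fits without 5-FU, at -0.40 to -0.21. The macrophage, mature neutrophil and NF-kappaB lists are among those that change side when KO BMX-001 replicate 1 is left out.

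Most genes of a list for hypoxia and glycolysis were lower with BMX-001, and the list sum was lowest in KO BMX-001 replicate 1. Of 26 tested members of the hypoxia and glycolysis list 20 were negative, the median log2 fold change was -0.26, and 10 members had separate groups, where 5.1% of all genes did. The median without KO BMX-001 replicate 1 was -0.21, and 14 members were separate, where 7.2% of all genes were. Summed over the list, BMX-001 libraries held 3720 to 4940 CPM and PBS libraries 5530 to 5740 CPM. Pgam1, for phosphoglycerate mutase, was at 44.6 and 61.4 CPM in KO BMX-001 libraries and 66.7 and 63 CPM in WT BMX-001 libraries, against 80.5 and 76.5 CPM in KO PBS libraries and 80.9 and 81.7 CPM in WT PBS libraries. Pkm, for pyruvate kinase, was at 400 and 599 CPM in KO BMX-001 libraries and 608 and 595 CPM in WT BMX-001 libraries, against 771 and 720.3 CPM in KO PBS libraries and 763 and 723 CPM in WT PBS libraries. By limma with sample weights 6 members fell and 0 rose, where 1.25% of all genes fell: Pgam1 (adjusted p = 0.0259), Pkm (0.0303), Pgk1 (0.0386), Eno1 (0.0444), Gpi1 and Hk2, all enzymes of the pathway itself. The most abundant members were Gapdh, at 349 and 754 CPM in KO BMX-001 libraries and 749.8 and 767 CPM in WT BMX-001 libraries, against 936 and 917 CPM in KO PBS libraries and 947 and 844 CPM in WT PBS libraries, and Bnip3l, a mitophagy receptor of maturing red cells. Bnip3l averaged 801 ± 66.3 CPM with BMX-001 and 682 ± 130 CPM with PBS, with groups that overlapped. The granule lists moved in the same libraries, and their part in the glycolysis values was not tested.

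The pentose phosphate pathway, which supplies NADPH and whose genes NRF2 can turn on, was lower in the same libraries as glycolysis. G6pdx, for its first enzyme, was at 154 and 278 CPM in KO BMX-001 libraries and 286 and 281 CPM in WT BMX-001 libraries, against 382 and 360 CPM in KO PBS libraries and 342 and 333 CPM in WT PBS libraries. Pgd, for the next dehydrogenase, was at 244 and 332 CPM in KO BMX-001 libraries and 353 and 322 CPM in WT BMX-001 libraries, against 424 and 394 CPM in KO PBS libraries and 417 and 397 CPM in WT PBS libraries. Both were separate between treatments in both genotypes and fell by limma with sample weights (adjusted p = 0.0303 for G6pdx and 0.0403 for Pgd). Of the non-oxidative enzymes, Tkt averaged 522 ± 161 CPM with BMX-001 and 715 ± 10.5 CPM with PBS, and Taldo1 averaged 364 ± 60.7 CPM with BMX-001 and 438 ± 7.59 CPM with PBS. Tkt and Taldo1 also had separate groups, but neither passed limma's threshold (adjusted p = 0.0741 and 0.0868).

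The NADPH oxidase turns oxygen into superoxide. Its genes were taken in a list with Mpo, the peroxidase gene Epx and Cyb5r3. In this NADPH oxidase and myeloperoxidase list 10 of 10 members were lower with all libraries, with a median log2 fold change of -0.27. Without KO BMX-001 replicate 1 it was 10 of 10 with -0.21, and without both libraries 9 of 10 with -0.21. Ncf1, for the organizing subunit p47phox, was at 461 and 464 CPM in KO BMX-001 libraries and 503 and 458 CPM in WT BMX-001 libraries, against 589 and 576 CPM in KO PBS libraries and 578 and 589 CPM in WT PBS libraries. The groups were far apart relative to their spread, with a log2 fold change of -0.31 ± 0.08, and Ncf1 fell by limma (adjusted p = 0.0299) and by DESeq2 (adjusted p = 0.0397), with an edgeR adjusted p of 0.418. Ncf4, for p40phox, averaged 107 ± 15.6 CPM with BMX-001 and 118 ± 3.12 CPM with PBS. It fell by limma (adjusted p = 0.0469) although its groups overlapped, KO BMX-001 replicate 1 being highest at 129.5 CPM. Of the membrane subunits, Cyba averaged 191 ± 6.55 CPM with BMX-001 and 216 ± 10.6 CPM with PBS, with separate groups, and Cybb averaged 836 ± 235 CPM with BMX-001 and 1128 ± 157 CPM with PBS, with groups that overlapped. The GTPase gene Rac2 had separate groups, at 554 ± 84.5 CPM with BMX-001 and 684 ± 33.7 CPM with PBS.

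Enzymes that remove superoxide and peroxide, the reactions BMX-001 takes part in chemically, showed small differences. Of 24 tested members 20 were negative, with a median log2 fold change of -0.11 with all libraries and of -0.03 without KO BMX-001 replicate 1. The superoxide dismutase genes had no separate groups: Sod1 averaged 142 ± 37.6 CPM with BMX-001 and 169 ± 10.6 CPM with PBS, and Sod2 averaged 49.2 ± 12.6 CPM with BMX-001 and 55.6 ± 2.19 CPM with PBS. Cat, for catalase, was at 278 and 292 CPM in KO BMX-001 libraries and 487 and 529 CPM in WT BMX-001 libraries, against 289 and 302 CPM in KO PBS libraries and 368 and 469.6 CPM in WT PBS libraries, so that only the WT libraries were apart by treatment. The most abundant members, Gpx1 and Prdx2, had log2 fold changes of 0.00 ± 0.15 and -0.04 ± 0.11. By limma 4 members fell and 0 rose, where 1.25% of all genes fell: the glutaredoxin gene Glrx (adjusted p = 0.0291), the peroxiredoxin gene Prdx5 (0.0461), and the methionine sulfoxide reductase genes Msra (0.0394) and Msrb1 (0.0398). Glrx was at 63.7 and 70.6 CPM in KO BMX-001 libraries and 72.8 and 70.6 CPM in WT BMX-001 libraries, against 86.1 and 84.9 CPM in KO PBS libraries and 83.4 and 87.8 CPM in WT PBS libraries. Prdx6 and the glutathione reductase gene Gsr also had separate, lower groups, with log2 fold changes of -0.21 ± 0.08 and -0.24 ± 0.09, and limma adjusted p-values of 0.0665 and 0.0537.

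NRF2 targets as a list had a median log2 fold change of -0.10 over 31 tested members, 22 of them negative, and of -0.09 without KO BMX-001 replicate 1. The classical targets followed genotype, with small differences by treatment. Nqo1, a quinone reductase, was at 10.6 and 11.9 CPM in KO BMX-001 libraries and 18.4 and 19 CPM in WT BMX-001 libraries, against 12.5 and 13.3 CPM in KO PBS libraries and 17.8 and 19.9 CPM in WT PBS libraries. Srxn1, which repairs peroxiredoxins, was at 4.94 and 7.86 CPM in KO BMX-001 libraries and 17.6 and 15.7 CPM in WT BMX-001 libraries, against 5.75 and 7.24 CPM in KO PBS libraries and 16 and 11.4 CPM in WT PBS libraries. The log2 fold changes were -0.11 ± 0.10 for Nqo1, 0.14 ± 0.19 for Srxn1, -0.08 ± 0.07 for the glutamate-cysteine ligase gene Gclc and -0.20 ± 0.16 for the heme oxygenase gene Hmox1, with edgeR adjusted p-values of 0.579 to 0.741. Txnrd1, for thioredoxin reductase, had a log2 fold change of -0.23 ± 0.08, being lower with BMX-001 within each genotype. The ferritin genes Fth1 and Ftl1, the most abundant members, had -0.03 ± 0.09 and -0.10 ± 0.09. The 2 members that fell by limma, where 1.25% of all genes did, are the pentose phosphate genes G6pdx and Pgd given above. In 7 members the groups were separate and lower and in 0 separate and higher, against 5.1% and 4.99% of all genes.

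Metal genes did not separate by treatment, and of 27 heme genes 1 did. In the list for metal binding and for manganese, zinc and copper transport, 0 members had separate groups, and the median log2 fold change was -0.08. The metallothionein genes Mt1 and Mt2, which metal excess turns on, were low: Mt1 averaged 7.46 ± 1.62 CPM with BMX-001 and 9.58 ± 1.68 CPM with PBS, and Mt2 averaged 4.40 ± 2.90 CPM with BMX-001 and 5.65 ± 1.16 CPM with PBS. Their sensor gene Mtf1 had a log2 fold change of -0.14 ± 0.13, and the most abundant members, the iron exporter gene Slc40a1 and the calcium and manganese pump gene Atp2c1, had 0.04 ± 0.11 and -0.01 ± 0.09. Heme synthesis and iron genes had a median of -0.04 over 27 members, with Alas2, the rate-limiting enzyme of erythroid heme synthesis, at 3786 ± 242 CPM with BMX-001 and 3426 ± 603 CPM with PBS, and the mitochondrial iron importer gene Slc25a37 at 3046 ± 316 CPM with BMX-001 and 2822 ± 499 CPM with PBS. The erythroid list had a median of -0.01 with 15 of 33 members positive. Its most abundant members were Hbb-bs, at 42050 ± 1640 CPM with BMX-001 and 35610 ± 6220 CPM with PBS, and Hba-a1, at 13860 ± 904 CPM with BMX-001 and 13220 ± 1880 CPM with PBS. Their groups overlapped.

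Genes of the unfolded protein response and of secretion were lower in 25 of 28 tested members with all libraries. Their median log2 fold change was -0.26 with all libraries, -0.18 without KO BMX-001 replicate 1 and -0.22 without both. With all libraries the groups were separate across both genotypes in 0 members. Separate and lower were 3 members without KO BMX-001 replicate 1, where 7.2% of all genes were, and 5 without both, where 10.9% were. Hspa5, the chaperone BiP of the endoplasmic reticulum, was at 289 and 403 CPM in KO BMX-001 libraries and 543.5 and 482 CPM in WT BMX-001 libraries, against 454 and 457 CPM in KO PBS libraries and 644.5 and 579 CPM in WT PBS libraries. WT levels were above KO levels, and within each genotype BMX-001 libraries were below PBS libraries (log2 fold change -0.33 ± 0.12; edgeR, adjusted p = 0.435). Xbp1, a transcription factor of this response and of plasma cells, was at 74.2 and 93.4 CPM in KO BMX-001 libraries and 96.9 and 95.3 CPM in WT BMX-001 libraries, against 113 and 120.5 CPM in KO PBS libraries and 139 and 92.2 CPM in WT PBS libraries. WT PBS replicate 2 was alone in overlapping, and without both libraries that stood apart the log2 fold change was -0.43 (edgeR, adjusted p = 0.0569). Txndc5, a disulfide isomerase of plasma cells, had -0.47 and Mogs, a glucosidase of glycoprotein folding, -0.37 in the same fit (edgeR, adjusted p = 0.0569 each). By limma Manf (adjusted p = 0.0405) and Sesn2 fell, as did the cytosolic chaperone gene Hspa8 of the heat shock list (adjusted p = 0.041). Calr, for calreticulin, averaged 573 ± 183 CPM with BMX-001 and 709 ± 87.4 CPM with PBS.

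The promoters of Hspa5 and Calr, the 2 most abundant genes of this list, are shown with the endoplasmic reticulum stress element in capitals, which is CCAAT, 9 bases of any kind and CCACG, and whose CCAAT part is on its own a binding sequence of NF-Y.
Hspa5: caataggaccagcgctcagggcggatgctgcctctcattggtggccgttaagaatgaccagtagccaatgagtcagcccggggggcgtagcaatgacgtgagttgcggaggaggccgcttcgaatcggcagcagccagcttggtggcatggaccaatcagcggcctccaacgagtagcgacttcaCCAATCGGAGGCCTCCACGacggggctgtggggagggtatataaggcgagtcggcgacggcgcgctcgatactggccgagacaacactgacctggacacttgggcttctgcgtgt
Calr: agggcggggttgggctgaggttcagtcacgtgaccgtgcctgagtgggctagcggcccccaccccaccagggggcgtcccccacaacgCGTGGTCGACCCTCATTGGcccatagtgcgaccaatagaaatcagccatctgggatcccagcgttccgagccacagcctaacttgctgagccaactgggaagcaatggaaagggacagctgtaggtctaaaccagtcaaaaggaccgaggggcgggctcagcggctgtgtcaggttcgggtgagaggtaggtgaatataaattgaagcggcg
They are RefSeq sequences on GRCm38.p6 at chr2:34771840-34772139 on the plus strand and chr8:84846882-84847181 on the minus strand, over the same window as above. The match began 65 bases before the start of Hspa5, and 162 bases before that of Calr, where it is on the opposite strand and reads as CGTGG, 9 bases and ATTGG. Searched on both strands, these letters occurred in 6 of the 27 list members with a promoter (Calr, Creld2, Dnajc3, Hsp90b1, Hspa5 and Pdia6) and in 0.137% of all 27025 genes with one. The match says nothing of which factor was bound in these cells.

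Plasma cell and immunoglobulin genes were lower with BMX-001 on average but varied widely among libraries of 1 group. The plasma cell list had a median log2 fold change of -0.35 with all libraries and -0.24 without KO BMX-001 replicate 1, with 0 of 21 members separate. Without both libraries that stood apart the median was -0.30. In that fit 7 of 21 members were separate and lower, where 10.9% of all genes were. Igkc, the kappa light chain constant region, was at 357 and 717 CPM in KO BMX-001 libraries and 392 and 719 CPM in WT BMX-001 libraries, against 889.5 and 1550 CPM in KO PBS libraries and 1492 and 429 CPM in WT PBS libraries. Igha, for the heavy chain of IgA, followed genotype and library, at 205 and 702 CPM in KO BMX-001 libraries and 151.5 and 103 CPM in WT BMX-001 libraries, against 1445 and 2100 CPM in KO PBS libraries and 69.5 and 102 CPM in WT PBS libraries. Of the genes of smallest p without WT PBS replicate 2, 5 were kappa or heavy chain segments (Igkv6-17, Ighv8-8, Igkv8-30, Igkv6-15 and Igkv19-93), at log2 fold changes of -3.25 to -1.53, and the others were mt-Nd2, Lrg1, Col1a1, Derl3 and Xbp1. Igkv6-17 shows how few libraries such values rest on: it was at 1.88 to 6.30 CPM in the BMX-001 libraries, against 13.3 and 11.5 CPM in KO PBS libraries, 84.5 CPM in WT PBS replicate 1 and 2.91 CPM in WT PBS replicate 2. Derl3, a plasma cell gene for protein degradation, averaged 1.42 ± 0.122 CPM with BMX-001 and 2.70 ± 1.27 CPM with PBS. Col1a1, the collagen gene of osteoblasts, was at 7.94 and 18.1 CPM in KO BMX-001 libraries and 24.6 and 25.2 CPM in WT BMX-001 libraries, against 54.3 and 31.5 CPM in KO PBS libraries and 75.3 and 24 CPM in WT PBS libraries. The stromal and osteolineage list as a whole had a median of 0.03 with 15 of 29 members positive (0.18 without KO BMX-001 replicate 1 and -0.06 without WT PBS replicate 2), and a summed level of 584 to 1320 CPM with BMX-001 and 711 to 1390 CPM with PBS; the part of bone cells in the Col1a1 values was not tested.

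Immediate early genes, which respond within minutes to handling and growth factors, were high in both libraries that stood apart, 1 of each treatment. Fos was at 269 and 29.3 CPM in KO BMX-001 libraries and 14.9 and 30.1 CPM in WT BMX-001 libraries, against 69 and 74.7 CPM in KO PBS libraries and 36.4 and 287 CPM in WT PBS libraries. Egr1 was at 34.8 and 6.86 CPM in KO BMX-001 libraries and 10.5 and 8.86 CPM in WT BMX-001 libraries, against 11.2 and 9.75 CPM in KO PBS libraries and 9.10 and 36.3 CPM in WT PBS libraries. The list had a median log2 fold change of -0.19 with all libraries, -0.60 without KO BMX-001 replicate 1 and -0.32 without both. In the last fit 21 of 24 members were negative and 12 of 24 separate, where 10.9% of all genes were. These counts cannot show an effect of treatment, because WT PBS replicate 2 was set apart through its high values of these same genes. Leaving out WT PBS replicate 2 alone turned the direction, with a median of 0.36 and 20 of 24 members positive. Its most abundant members were Zfp36, which destabilises cytokine messages, at a log2 fold change of -0.65 without both libraries, and the antiproliferative gene Btg2, at 0.07. Klf4, a factor of monocyte formation, was the 1 member with separate groups in all 8 libraries. It stood at 21.7 and 31.8 CPM in KO BMX-001 libraries and 26.2 and 31.5 CPM in WT BMX-001 libraries, against 42.3 and 40.1 CPM in KO PBS libraries and 38.2 and 49.4 CPM in WT PBS libraries, and fell by limma (adjusted p = 0.0295).

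NF-kappaB and cytokine genes followed the same libraries. The list median was 0.06 with all libraries, -0.30 without KO BMX-001 replicate 1 and -0.11 without both, while without WT PBS replicate 2 alone it was 0.37 with 23 of 28 members positive. Cxcl2, a chemokine that draws neutrophils, was at 51.8 and 0.390 CPM in KO BMX-001 libraries and 0.464 and 0.290 CPM in WT BMX-001 libraries, against 1.60 and 1.59 CPM in KO PBS libraries and 0.956 and 18.8 CPM in WT PBS libraries. Its log2 fold change was 0.01 ± 5.73 with all libraries, -3.87 ± 1.47 without KO BMX-001 replicate 1 and -1.67 without both (edgeR, adjusted p = 0.0774). Il1b, for interleukin 1 beta, was at 303 and 24.7 CPM in KO BMX-001 libraries and 28.7 and 25.6 CPM in WT BMX-001 libraries, against 44.5 and 32.7 CPM in KO PBS libraries and 23.5 and 58.3 CPM in WT PBS libraries, with groups that overlapped in the fits of 8, 7 and 6 libraries. Tnf had separate groups in all 8 libraries, at 11.7 ± 2.08 CPM with BMX-001 and 15.9 ± 1.30 CPM with PBS (log2 fold change -0.44 ± 0.14; edgeR, adjusted p = 0.418; limma, adjusted p = 0.117). The most abundant members, Tnfaip2 and Nfkb1, had -0.08 ± 0.08 and -0.18 ± 0.09.

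**Figure D3:**
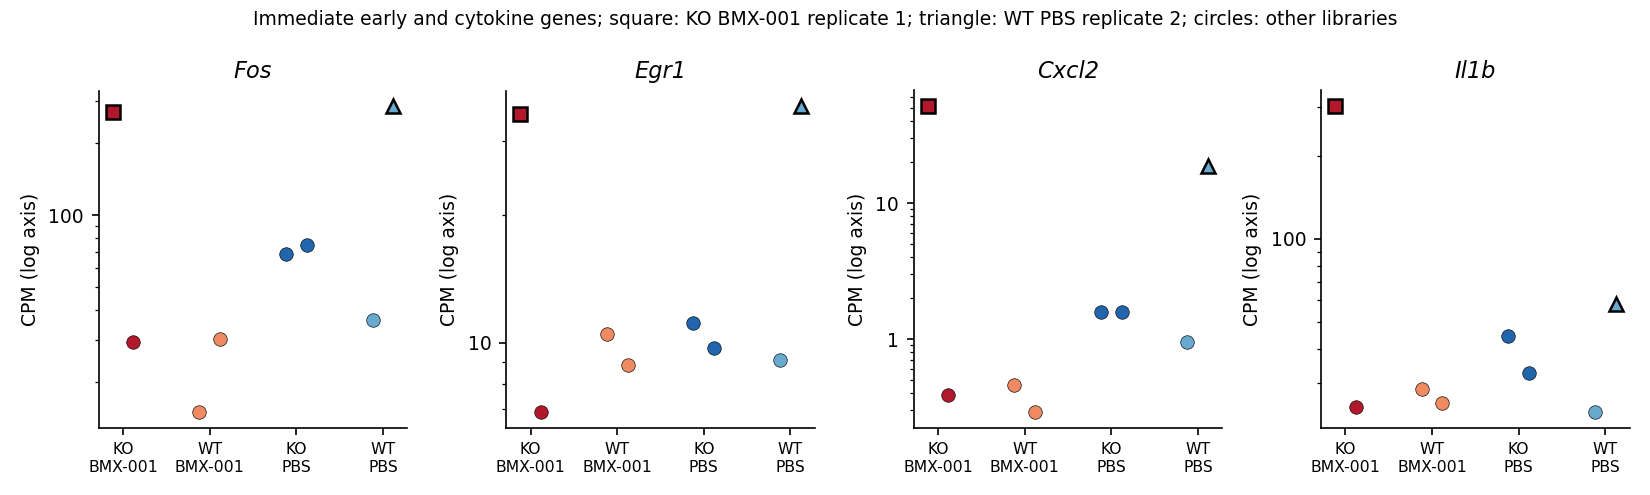
Normalised CPM on a log axis of Fos, Egr1, Cxcl2 and Il1b in KO BMX-001, WT BMX-001, KO PBS and WT PBS marrow, 1 symbol per library; the square is KO BMX-001 replicate 1 and the triangle WT PBS replicate 2. Fos was at 269 CPM at the square and 287 CPM at the triangle, and at 14.9 to 74.7 CPM elsewhere.

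Macrophage genes were higher with BMX-001 in 3 of the 4 libraries and lowest in the fourth. The macrophage and erythroblastic island list had a median log2 fold change of -0.05 with all libraries and of 0.15 without KO BMX-001 replicate 1, where 20 of 23 members were positive and 6 were separate and higher, against 6.61% of all genes. It was -0.12 without WT PBS replicate 2 and 0.16 without both. Vcam1, the adhesion molecule of island macrophages, was at 106 and 272 CPM in KO BMX-001 libraries and 265 and 257 CPM in WT BMX-001 libraries, against 219.9 and 211 CPM in KO PBS libraries and 222 and 216 CPM in WT PBS libraries. Mrc1, the mannose receptor, was at 43.7 and 123 CPM in KO BMX-001 libraries and 126 and 119 CPM in WT BMX-001 libraries, against 102 and 89.6 CPM in KO PBS libraries and 101 and 95.9 CPM in WT PBS libraries. Without KO BMX-001 replicate 1 the log2 fold changes were 0.28 ± 0.06 for Vcam1 and 0.33 ± 0.06 for Mrc1, each with an edgeR adjusted p of 0.104. Vsig4, a complement receptor of tissue macrophages, rose by limma with sample weights (adjusted p = 0.027) and was at 0.231 and 1.51 CPM in KO BMX-001 libraries and 1.72 and 1.79 CPM in WT BMX-001 libraries, against 0.726 and 0.577 CPM in KO PBS libraries and 0.770 and 0.623 CPM in WT PBS libraries.

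Mature B cell genes were higher with BMX-001 in 19 of 22 members, with a median of 0.28 with all libraries, 0.20 without KO BMX-001 replicate 1 and 0.16 without both. In 6 members every BMX-001 library was above every PBS library, where 4.99% of all genes were, and without both libraries 8 members were, where 9.88% of all genes were. By limma with sample weights 3 rose and 0 fell, where 1.94% of all genes rose: Cr2 (adjusted p = 0.0268), Bank1, an adaptor of B cell receptor signalling (0.0303), and Ighd, for the heavy chain of IgD (0.031). Bank1 was at 77.2 and 62.8 CPM in KO BMX-001 libraries and 68.7 and 60.8 CPM in WT BMX-001 libraries, against 53.2 and 37.1 CPM in KO PBS libraries and 51.4 and 43.9 CPM in WT PBS libraries. Ighm, the most abundant member, had groups that overlapped, at 1325 ± 600 CPM with BMX-001 and 1895 ± 1370 CPM with PBS. Of 24 genes of B cell precursors 18 were positive, with a median of 0.15, and of 0.12 without KO BMX-001 replicate 1. Of 29 genes of T and NK cells 21 were positive with a median of 0.09 in all libraries, but 12 with a median of -0.01 when KO BMX-001 replicate 1 was left out. The megakaryocyte list had a median of 0.38, with 20 of 22 positive, but 0 members were separate. That median was 0.70 without KO BMX-001 replicate 1 and 0.08, with 16 of 22 positive, without WT PBS replicate 2. Its abundant member Itgb3, an integrin of platelets, was at 58.3 and 263 CPM in KO BMX-001 libraries and 298 and 209 CPM in WT BMX-001 libraries, against 138 and 200.4 CPM in KO PBS libraries and 259 and 90.6 CPM in WT PBS libraries, and Thbs1 averaged 562 ± 267 CPM with BMX-001 and 380 ± 53 CPM with PBS. Interferon response, cell cycle and p53 target lists had medians of -0.05, -0.17 and -0.11 with all libraries, and of -0.04, -0.06 and -0.11 without KO BMX-001 replicate 1; the p53 target median was 0.05 without WT PBS replicate 2. Ribosomal protein genes were lower in 34 of 35 members with a median of -0.14, and of -0.09 without KO BMX-001 replicate 1. Replication-dependent histone genes were lower in 22 of 22 with a median of -0.27, and of -0.10 without that library. In both lists 0 members were separate. Stem and progenitor genes had a median of -0.15 with all libraries and of -0.05 without KO BMX-001 replicate 1, dendritic cell genes of 0.09 and 0.10, and genes of basophils, mast cells and eosinophils of -0.13 and -0.16 (-0.07 without WT PBS replicate 2).

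Intronic and uncertain transcripts were higher with BMX-001, and other noncoding classes less so, a grouping chosen after the values were seen. The annotation class TEC holds transcripts of uncertain status that await experimental support, and 779 of the 974 TEC genes tested without both libraries lay within a protein-coding gene. Of 980 TEC genes tested in all 8 libraries 947 were positive, with a median log2 fold change of 0.74, against -0.04 over 13267 protein-coding genes. Leaving KO BMX-001 replicate 1 out gave a TEC median of 0.41, and leaving both libraries out 0.47, with 889 of 974 positive. Sense intronic genes had medians of 0.76 with all libraries and 0.44 without KO BMX-001 replicate 1, and long intergenic noncoding genes 0.37 and 0.18. Antisense genes had 0.28 and 0.07, and nuclear long noncoding and small-RNA host genes 0.46 and 0.10. In WT, fitted with all 16 libraries, medians were 0.26 for TEC, 0.34 for sense intronic and 0.16 for long intergenic noncoding genes. Antisense genes had 0.02 there and nuclear RNA genes 0.01. Relative to the PBS libraries of the same genotype, the median TEC gene was 1.59 and 0.57 higher on the log2 scale in KO BMX-001 libraries and 0.36 and 0.18 higher in WT BMX-001 libraries. On this measure the PBS libraries were between -0.04 and 0.04. Each PBS library is compared with a mean that includes itself, so these values centre on 0 and are narrowed by construction. Their range is thus no measure of the spread that BMX-001 libraries would show without an effect. All 4 BMX-001 libraries lay above the PBS libraries, the KO ones more than the WT ones. Summed TEC levels overlapped between treatments, with 2082 CPM in WT BMX-001 replicate 2 and 2158 CPM in WT PBS replicate 2. By limma 118 TEC genes rose and 0 fell, where 1.94% of all genes rose, and by DESeq2 33 rose and 0 fell, where 0.329% of all genes rose. Of the nuclear RNAs, Malat1 was at 12030 and 4147 CPM in KO BMX-001 libraries and 4043 and 3239 CPM in WT BMX-001 libraries, against 2834 and 3185 CPM in KO PBS libraries and 2543 and 4593 CPM in WT PBS libraries, and Neat1 averaged 399 ± 466 CPM with BMX-001 and 140 ± 23.1 CPM with PBS. The strand setting of the counting is not given in the sources used here, so reads of these transcripts and of the genes around them cannot be told apart. TEC levels moved with treatment in the same libraries as the granule and glycolysis genes, and their part in those differences was not tested.

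**Figure D4:**
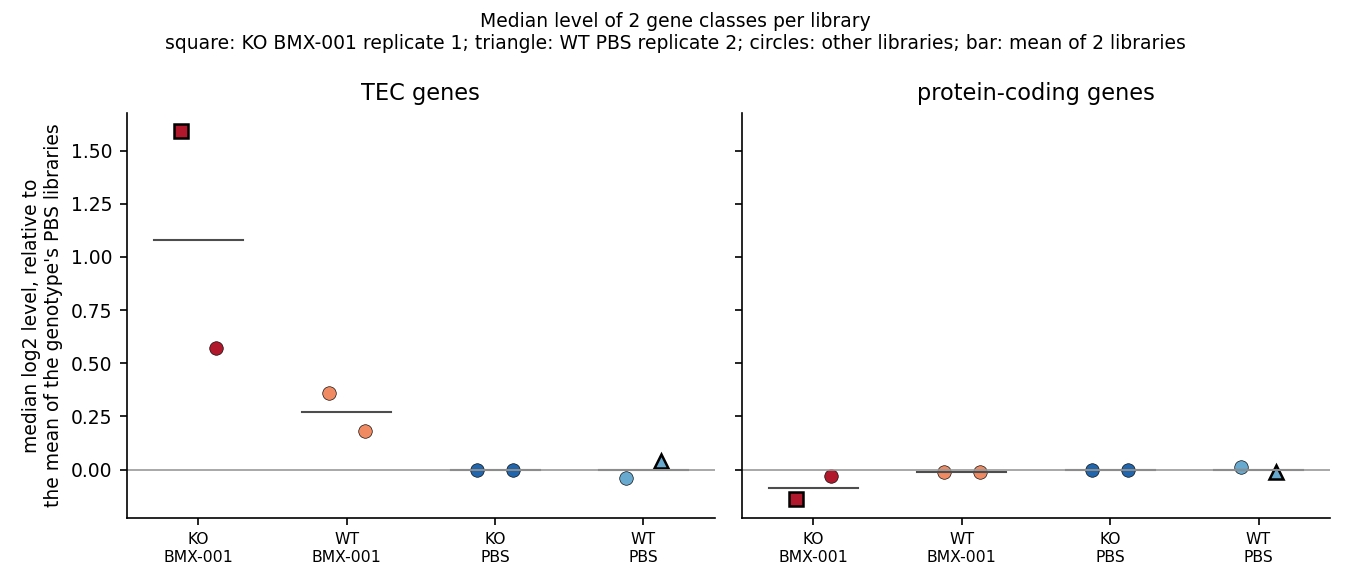
Median log2 level of TEC genes and of protein-coding genes in each library, relative to the mean of the PBS libraries of the same genotype; the square is KO BMX-001 replicate 1 and the triangle WT PBS replicate 2. TEC medians were 1.59, 0.57, 0.36 and 0.18 in the BMX-001 libraries, and protein-coding medians were between -0.14 and 0.01 in all 8.

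Mitochondrially encoded genes had a median log2 fold change of 0.28 with all libraries and of 0.39 without both, with 12 of 13 positive in either fit. Leaving out KO BMX-001 replicate 1 alone gave 0.21 and WT PBS replicate 2 alone 0.44. In the fit without both, 11 of the 13 had an unadjusted p under 0.05, where 8.4% of all genes did in that direction, and mt-Nd2 alone was called. mt-Nd2 was at 375 and 333 CPM in KO BMX-001 libraries and 210.5 and 252 CPM in WT BMX-001 libraries, against 218 and 207 CPM in KO PBS libraries and 146 and 278 CPM in WT PBS libraries. The most abundant members were mt-Co1, at 3988 ± 740 CPM with BMX-001 and 3341 ± 653 CPM with PBS, and mt-Cytb, at 1261 ± 298 CPM with BMX-001 and 1020 ± 207 CPM with PBS. Without KO BMX-001 replicate 1 the list median was 0.48 in KO and 0.00 in WT, with a median difference KO minus WT of 0.50. Without both libraries the WT median was 0.37, with 13 of 14 positive, and the median difference 0.13. For mt-Nd2 the difference KO minus WT was 0.52 ± 0.44 in that fit (edgeR, adjusted p = 0.999) and -0.02 ± 0.23 without both libraries.

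Within each genotype, fits of 8 group means over all 16 libraries tested BMX-001 against PBS in KO, in WT, and the difference between them. In KO 1 of 19152 genes was called by edgeR (0.00522%, with 5859 or 30.6% at an unadjusted p under 0.05), the heavy chain segment Ighv1-15, which fell with a log2 fold change of -4.80 ± 0.47 (adjusted p = 0.00443). DESeq2 called 1802 of 15618 genes in KO. Ighv1-15 was at 1.32 and 1.25 CPM in KO BMX-001 libraries, against 24 and 46.3 CPM in KO PBS libraries, and at 2.57 and 1.79 CPM in WT BMX-001 libraries, against 2.71 and 1.4 CPM in WT PBS libraries. The next genes in KO, Iglv1, Igkv17-121, Igkv3-12 and Ighv14-2, were also immunoglobulin segments, at log2 fold changes of -4.38 to -1.52. In WT 0 of 19152 genes were called (0%), with 977 at an unadjusted p under 0.05 (5.1%) and 0 called by DESeq2. The smallest p in WT belonged to the zinc finger genes Zfp760 (0.81 ± 0.15), Zfp120 (0.56 ± 0.12) and Zfp958 (0.59 ± 0.13), to Vill (-0.63 ± 0.15) and to G2e3, a ubiquitin ligase (0.41 ± 0.10). For the difference of the BMX-001 effect between KO and WT, edgeR called 0 of 19152 genes (0%), with 2119 (11.1%) at an unadjusted p under 0.05. DESeq2 called 8 of 28866 genes for that difference. Ighv1-15 had the smallest p, with a difference of -4.88 ± 0.63 (adjusted p = 0.0786), followed by Iglv1, Ighv14-2, Igkv3-12 and Iglc1. These counts rest on single libraries. With KO BMX-001 replicate 2 left out, so that the library that stood apart is alone in its group, edgeR called 9015 genes in KO and 6402 for the difference. Without KO PBS replicate 1 it called 8 in KO and 5 for the difference, without KO PBS replicate 2 it called 3 in KO, and without WT PBS replicate 2 it called 1 in WT.

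The KO effect without KO BMX-001 replicate 1 rests on 1 BMX-001 library, which is assumed to vary like the other groups. Then 0 of 19694 genes were called by edgeR in KO, in WT and for the difference, with 1772, 2043 and 740 genes at an unadjusted p under 0.05 (9%, 10.4% and 3.76%). The KO and WT log2 fold changes then correlated with Pearson's r of 0.44 across 9411 genes of mean log2 CPM 3 or more. Spearman's rho was 0.46 there, and r was 0.18 across all 19694 genes. Without both libraries r was 0.33 across 9444 genes above that cut and 0.12 across all 19616. With all 16 libraries r was 0.05 across 19152 genes. These values describe genes, which are not independent replicates. Without KO BMX-001 replicate 1, Spi1 had -0.41 ± 0.10 in KO and -0.33 ± 0.08 in WT. In that order G6pdx had -0.43 ± 0.10 and -0.26 ± 0.08, and Ncf1 -0.34 ± 0.12 and -0.29 ± 0.09. Cebpe, among the 5 genes of smallest p in WT, had -0.26 ± 0.11 in KO and -0.52 ± 0.09 in WT. The others in WT were Zfp760, Gys1, Adgrg3, an adhesion receptor of neutrophils, and Gpc1, a glypican, and those in KO were Mrgpra2b, Ifi208, Igkv17-121, Ighv1-15 and Ly6c2 (edgeR, adjusted p up to 0.436, 0 called). The differences between genotypes of smallest p there were Ighv1-15, Mpzl3, Ifnar2, Plin2 and Lncpint, each with an adjusted p of 0.999. Granule and metabolic lists had negative medians in both genotypes. The primary granule list had -0.26 in KO and -0.29 in WT, and the hypoxia and glycolysis list -0.25 and -0.22. The secondary and tertiary granule list had -0.40 in KO and -0.19 in WT (-0.08 in WT without both libraries). Mature neutrophil genes had -0.47 in KO and -0.16 in WT (-0.07 in WT without both libraries). The NADPH oxidase and myeloperoxidase list had -0.28 and -0.20, and the unfolded protein response list -0.21 and -0.18. Immediate early genes had -0.39 in KO and -0.88 in WT, where WT PBS replicate 2 takes part (-0.26 in WT without both libraries), and immunoglobulin variable segments -0.78 and 0.16.

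**Figure D5:**
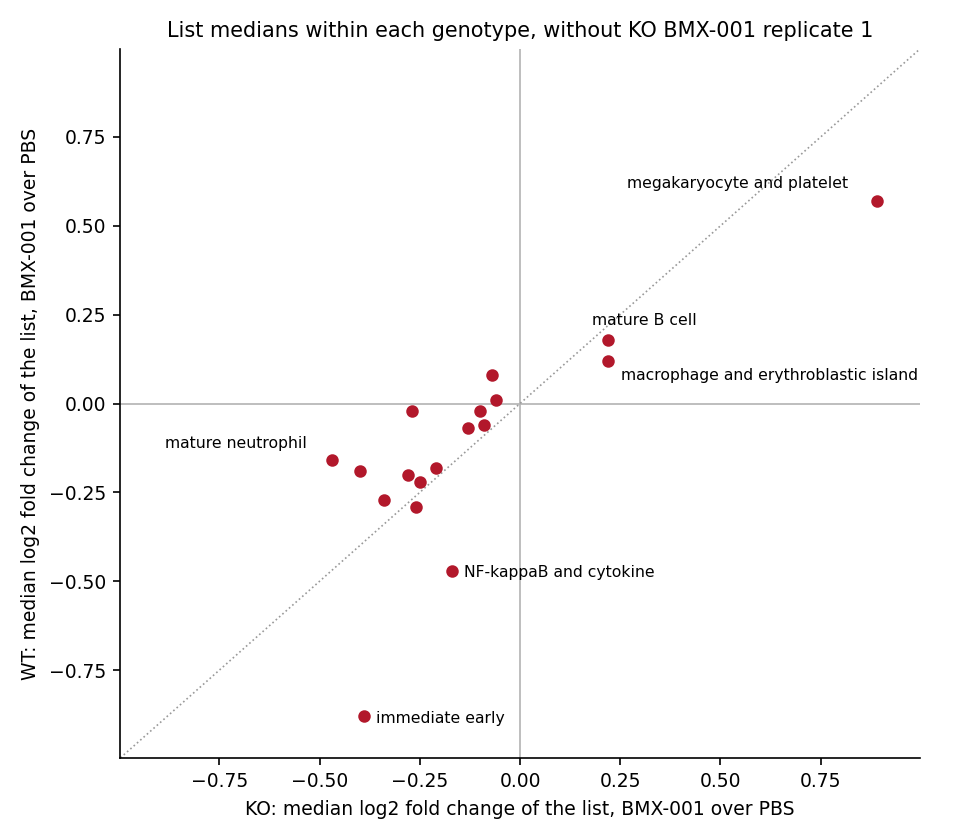
Median log2 fold change of the same 18 gene lists for BMX-001 over PBS in KO (horizontal axis) and in WT (vertical axis), from the fit without KO BMX-001 replicate 1; each point is a list and the dotted line marks equal values. The megakaryocyte list, at 0.89 in KO and 0.57 in WT, and the immediate early list, at -0.39 in KO and -0.88 in WT, lie farthest out; without both libraries the WT medians were -0.03 and -0.26.

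BMX-001 was also given with 5-FU, and the 8 libraries of BMX-001 with 5-FU against 5-FU share none with those above. Over both genotypes edgeR called 0 of 17866 genes there (0%), with 796 at an unadjusted p under 0.05 (4.46%), and DESeq2 called 17 of 17164. Spi1 had a log2 fold change of 0.00 with 5-FU, Ncf1 of 0.08, Cebpe of -0.06, Pgam1 of -0.04, G6pdx of -0.11 and Cr2 of -0.23, while Igkv19-93 had -1.80. List medians with 5-FU were -0.12 for the primary granule, -0.02 for secondary and tertiary granules and -0.09 for hypoxia and glycolysis. The NADPH oxidase and myeloperoxidase list had 0.02, mature B cells -0.01, and megakaryocytes -0.32 with 22 of 23 members negative. TEC genes had 0.06 and mitochondrially encoded genes -0.15. The unfolded protein response list had -0.16, with 22 of 28 members negative, and Hspa5 had -0.30 with 5-FU and -0.33 without. Across 17378 genes the log2 fold changes without and with 5-FU correlated with Pearson's r of 0.15. It was 0.07 across 17500 genes without KO BMX-001 replicate 1. Without both libraries r was 0.10 across 17399 genes, and 0.20 across 9277 genes of mean log2 CPM 3 or more. Spearman's rho across those 9277 genes was 0.09. Whether the effect of BMX-001 differs between mice without and with 5-FU was not tested.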

How the data were processed

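The authors deposited a table of raw read counts per gene for 16 libraries of mouse bone marrow RNA. Per the submitters' processing notes it was made with Trim Galore 0.6.4, FastQC 0.12.1, Salmon 1.4.0 and featureCounts on GRCm39, and analysed with DESeq2 1.38.3 in R 4.3.0. Tool roles, gene annotation and strand setting: not given in the sources used here. Of 57132 gene IDs, 51880 were matched to a symbol, and the others held 2.69% of the counts.

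The counts were filtered with filterByExpr, scaled by TMM (trimmed mean of M-values) and tested with edgeR 4.0.16 (robust quasi-likelihood test, genotype as block, Benjamini-Hochberg adjustment over all genes tested) in R 4.3.3. Genotype effects and their difference came from 1 fit of 8 group means over 16 libraries. Standard errors are the absolute log2 fold change divided by the square root of F. DESeq2 1.42.0, limma 3.58.1 with sample weights, RLE scaling, no filter, other group models, a replicate block and leaving out each library were alternatives. The code was tested on simulated data.

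Of the genes named, Nfe2l2 was always given, then the 10 of smallest unadjusted p in each fit over both genotypes and the 5 within genotypes (mean log2 CPM 1 or more), and in each list the called members or the 2 most abundant. Predicted genes were left out, except 2 called without both libraries. Members and lists were chosen with earlier results of these data known, and some genes are not reported here. A shared replicate number was not taken to pair libraries. Their deviations from group means correlated at 0.218 across genes in KO, where KO BMX-001 replicate 1 takes part, and at 0.0253 in WT. No test was applied to these values, so they do not exclude a pairing. Totals of 27305707 to 39156336 counts set the precision of low genes.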

Additional observations from a re-analysis of the deposited data

Results flagged for a closer look

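In 44 of 240 groups of 4 libraries, each the BMX-001 or the PBS libraries for 1 of 120 measures, the highest or lowest library lay beyond Dixon's 95% critical value for 4 values. About 12 such groups would arise by chance. The values below are CPM and the ranges are those of the other 3 libraries of the same treatment.

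KO BMX-001 replicate 1 accounted for 33 of them. It was low for primary and secondary granule genes: Mpo at 279.2 (1323 to 1442), Elane at 107.3 (242.7 to 265.2), Prtn3 at 81.81 (141.1 to 146.4), Ctsg at 70.25 (118.3 to 121.4) and Chil3 at 949.3 (1700 to 1846). It was low for carbon metabolism: Gapdh at 348.5 (749.8 to 767.3), Pkm at 400 (594.6 to 608.1), Eno1 at 182.8 (340.8 to 354.3), G6pdx at 153.7 (277.7 to 286) and Tkt at 281 (595.9 to 610.3). For secretion genes it held Xbp1 at 74.23 (93.38 to 96.87), Txndc5 at 46.85 (80.01 to 86.01), Ckap4 at 169.6 (253.9 to 265.8) and Plod3 at 34.37 (52.17 to 54.81). For macrophage genes it held Vcam1 at 105.5 (257.3 to 272.4), Mrc1 at 43.66 (118.8 to 126.4) and Mpeg1 at 287.2 (662.4 to 712.3). Rac2 stood at 427.6 (589.3 to 605.9) and Sod2 at 30.44 (52.78 to 56.85).

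The same library was high for immediate early and inflammatory genes: Fos at 269.3 (14.91 to 30.14), Egr1 at 34.76 (6.855 to 10.49), Zfp36 at 341.9 (91.88 to 130.2), Btg2 at 470.1 (291.6 to 310.5), Cxcl2 at 51.8 (0.29 to 0.4643) and Il1b at 303.1 (24.69 to 28.68). Mature neutrophil genes were high as well, with Mxd1 at 1006 (569.9 to 595.4) and S100a9 at 10840 (6973 to 7406). Slc16a3 stood at 269.3 (55.17 to 62.37) and Fam208a at 81.05 (62.02 to 64.74). Nuclear transcripts were high, with Malat1 at 12030 (3239 to 4147), Neat1 at 1097 (130.8 to 211.6) and the summed TEC genes at 6482 (2082 to 2798). Its score on the first principal component was 67.5 (-16.4 to -3.26).

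WT PBS replicate 2 was high for Fos at 287.1 (36.41 to 74.66), Egr1 at 36.25 (9.104 to 11.15), Cxcl2 at 18.82 (0.9555 to 1.597) and Zfp36 at 419.8 (169.8 to 206.1). WT PBS replicate 1 was low for Ltb4r1 at 71.61 (77.19 to 77.77) and Bnip3l at 486.2 (738.3 to 752), and high for Ighm at 3930 (1090 to 1458). KO PBS replicate 1 was low for Cebpe at 64.76 (76.7 to 79.09) and Mt1 at 7.057 (10.3 to 10.61). Single high values were Ncf1 at 502.6 in WT BMX-001 replicate 1 and Igha at 701.8 in KO BMX-001 replicate 2.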

How the results depend on the processing

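The count over both genotypes depended on the tool: edgeR called 0 genes, also with RLE scaling, without a filter on low counts, with all 16 libraries, with 4 group means and without any 1 library (0 to 0), against 62 by DESeq2, 563 by limma with sample weights and 7 without both libraries that stood apart. In KO the count was 1, against 3651 without a filter, 1802 by DESeq2, 0 with 4 group means and 0 to 9015 without 1 library. In WT it was 0, against 187 without a filter, 8 without both and 0 to 1 without 1 library. For the difference between genotypes it was 0, against 883 without a filter, 8 by DESeq2, 1 without both and 0 to 6402 without 1 library. With 5-FU it was 0, against 191 without a filter and 17 by DESeq2. The cause of these differences was not tested. With the replicate number as a block, edgeR called 0 genes over both genotypes, 2 in KO, 0 in WT and 0 for the difference.

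Of the named genes, over all alternatives 1750 log2 fold changes kept their direction and side of the threshold, 62 passed it and 60 changed sign. Without both libraries the sign changed for Slc16a3 (-0.48, against 0.07 with all 8), Gpx1 (0.07, against 0.00), Cxcl2 (-1.67, against 0.01), Il1b (-0.23, against 0.75), Mxd1 (-0.09, against 0.06), Prdx2 (0.02, against -0.04) and Fth1 (0.00, against -0.03). By limma it changed for Slc16a3 (-0.55), Cxcl2 (-2.24), Il1b (-0.42), Btg2 (-0.02, against 0.12) and Mxd1 (-0.12). With the replicate block it changed for Slc16a3 (-0.13), Gpx1 (0.00), Cxcl2 (-1.20), Vcam1 (-0.04, against 0.03) and Mrc1 (-0.02, against 0.06). Cxcl2 also had -0.36 by DESeq2, -0.03 without a filter, -0.36 with 16 libraries and -0.35 with 4 group means.

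Leaving out 1 library, or both that stood apart, gave these ranges of log2 fold changes that changed sign: Cxcl2 -3.87 to 2.29, Fos -2.21 to 0.32, Egr1 -0.99 to 0.62, Il1b -0.62 to 1.30, Slc16a3 -0.67 to 0.34, Vcam1 -0.23 to 0.28, Mrc1 -0.22 to 0.33, Itgb3 -0.20 to 0.57, S100a9 -0.19 to 0.07, Mxd1 -0.16 to 0.16, Prdx2 -0.11 to 0.03, Gpx1 -0.10 to 0.14, Btg2 -0.09 to 0.29, Atp2c1 -0.08 to 0.03, Fth1 -0.06 to 0.00, Slc40a1 -0.02 to 0.10 and Hba-a1 0.00 to 0.14.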
